A study of Mus musculus with 8 samples.

Results

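The regions described here are the broadest H2A.Z domains of control mouse testis, the 630 intervals of the Control peak list that were 2500 bp wide or wider, among 48752 Control peaks in all. They were chosen by their width in the Control list and by nothing else, so the widths describe the selection and are not a result. Peaks chosen as the widest of 1 list also tend to be covered only in part by any second list. No second Control list was available, so partial coverage and bare edges cannot be set down to genotype here. The 630 domains made up 1.29% of the Control peaks and 4.28% of their length, 1861.93 kb. They were set against the 31156 H2A.Z peaks of Znhit1-CKO testes and against the authors' 24367 differential regions between the genotypes.

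The assay was ChIP-seq, the sequencing of chromatin fragments immunoprecipitated with an antibody to H2A.Z, in collagenase- and trypsin-dispersed testis cells of mice at postnatal day 14. Each genotype had 2 H2A.Z immunoprecipitates and 2 inputs. The tested animals are labelled Znhit1-CKO, a conditional knockout of Znhit1 that the protocol also calls Znhit1-sKO, and the others are labelled Control. The sources used here do not give the promoter or cell type that drives the recombinase, the strain or the makeup of the control genotype. The labelled cell type is testis cells, a mixture of germ and somatic cells. In such a mixture, fewer cells of a type and less H2A.Z per cell cannot be told apart. Each genotype has 1 peak list, which the deposit attaches to replicate 1 of its immunoprecipitates. Whether it was called on that library alone or on both replicates is not stated, so it may rest on a single immunoprecipitate. No value below has a replicate error and none was tested against the spread between animals. The 95% intervals cover counting error over regions only.

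H2A.Z is a variant of histone H2A that replaces it in nucleosomes beside transcription start sites, at enhancers and at CpG-rich promoters, including those of developmental genes under Polycomb control. ZNHIT1 is a subunit of the SRCAP complex, which exchanges H2A for H2A.Z. The series asks how ZNHIT1 shapes the genomic placement of H2A.Z during the germ cell programme of the testis.

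Promoter sequences of 6 named domains are printed first, since the domains without any Znhit1-CKO peak and those wholly or almost wholly covered by one are the extremes of the set. They are RefSeq promoters of build GRCm38.p6, which shares its coordinates with mm10, and run 5′ to 3′ from 250 bases before to 50 bases after the annotated start. Each CpG dinucleotide is in capitals. Slc18a3, Ngfr and Pcdh8 lay in domains with no Znhit1-CKO peak. Pcdh7 had the widest domain of all, and Zmiz1 and Erbb4 had the widest domains that Znhit1-CKO peaks covered from end to end.
Slc18a3 (chr14:32464801-32465100, minus strand): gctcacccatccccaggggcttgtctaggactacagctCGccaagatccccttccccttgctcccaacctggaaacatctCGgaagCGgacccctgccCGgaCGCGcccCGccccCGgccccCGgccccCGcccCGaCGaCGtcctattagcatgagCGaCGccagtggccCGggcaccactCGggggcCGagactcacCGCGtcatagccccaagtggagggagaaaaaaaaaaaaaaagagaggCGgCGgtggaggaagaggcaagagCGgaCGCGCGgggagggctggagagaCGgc
Ngfr (chr11:95587649-95587948, minus strand): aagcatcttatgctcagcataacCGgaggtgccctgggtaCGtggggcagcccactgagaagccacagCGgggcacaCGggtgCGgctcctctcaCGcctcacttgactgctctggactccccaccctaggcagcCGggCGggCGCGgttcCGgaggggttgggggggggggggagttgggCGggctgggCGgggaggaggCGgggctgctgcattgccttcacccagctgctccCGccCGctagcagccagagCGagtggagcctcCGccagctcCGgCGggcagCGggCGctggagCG
Pcdh8 (chr14:79771263-79771562, minus strand): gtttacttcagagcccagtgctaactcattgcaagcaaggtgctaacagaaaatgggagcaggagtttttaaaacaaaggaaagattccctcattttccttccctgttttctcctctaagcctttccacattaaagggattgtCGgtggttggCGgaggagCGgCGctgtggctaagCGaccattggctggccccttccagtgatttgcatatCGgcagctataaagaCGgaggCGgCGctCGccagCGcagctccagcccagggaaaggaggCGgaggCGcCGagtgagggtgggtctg
Pcdh7 (chr5:57717831-57718130, plus strand): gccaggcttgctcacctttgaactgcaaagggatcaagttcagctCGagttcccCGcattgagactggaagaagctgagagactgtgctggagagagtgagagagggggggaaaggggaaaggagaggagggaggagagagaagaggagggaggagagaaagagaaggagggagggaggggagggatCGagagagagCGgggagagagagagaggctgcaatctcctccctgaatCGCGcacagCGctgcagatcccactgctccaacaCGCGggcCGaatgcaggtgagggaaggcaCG
Zmiz1 (chr14:25458935-25459234, plus strand): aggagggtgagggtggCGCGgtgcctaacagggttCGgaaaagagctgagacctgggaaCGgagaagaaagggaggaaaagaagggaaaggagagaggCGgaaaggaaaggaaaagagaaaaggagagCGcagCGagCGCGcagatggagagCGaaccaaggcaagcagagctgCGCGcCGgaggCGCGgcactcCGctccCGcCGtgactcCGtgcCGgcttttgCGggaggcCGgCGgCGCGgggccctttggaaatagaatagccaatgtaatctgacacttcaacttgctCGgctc
Erbb4 (chr1:69108010-69108309, minus strand): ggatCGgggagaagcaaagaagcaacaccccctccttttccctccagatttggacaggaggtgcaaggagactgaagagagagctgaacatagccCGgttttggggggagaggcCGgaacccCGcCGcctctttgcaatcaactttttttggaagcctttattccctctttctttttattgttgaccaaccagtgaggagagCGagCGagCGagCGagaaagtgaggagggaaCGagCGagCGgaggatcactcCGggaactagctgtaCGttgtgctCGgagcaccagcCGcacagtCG

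All 6 windows hold CpG dinucleotides, 27 at Slc18a3, 23 at Ngfr and 14 at Pcdh8, against 11 at Pcdh7, 26 at Zmiz1 and 17 at Erbb4. The CpG observed over expected ratio corrects this count for base composition and was 0.80, 0.61 and 0.64 at the uncovered 3, against 0.49, 1.03 and 0.75 at the covered 3. The windows of the 2 kinds of domain therefore overlapped in CpG content. The widest domain of all had the lowest ratio of the 6.

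The domains ranged from 2501 to 6326 bp, with a median of 2806 bp. Of them, 199 were at least 3000 bp wide, 26 at least 4000 bp and 5 at least 5000 bp. The 5 Control peaks just inside the limit, at Mast4, Pim3, Pik3ca, Setd7 and Clic4, were all 2501 bp wide, and Znhit1-CKO peaks covered 72.9 to 94.6% of them. The 5 just outside lay at Pank1 (2496 bp), Kmt2e and Fbxl17 (2493 bp each), and Erlin2 and Zdhhc5 (2492 bp each), with 48.7 to 89.5% covered. Every one of the 5 inside had a differential region, and so did Pank1, Kmt2e and Fbxl17 outside.

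Almost every broad domain still held an H2A.Z peak in Znhit1-CKO testes, but rarely over its whole width and often in pieces. How much of the partial coverage follows from the selection on Control width was not tested. No Znhit1-CKO peak lay over 8 domains (1.27%, exact 95% interval 0.550 to 2.49%), against 50.7% of all Control peaks. The share was 3.17% when only Znhit1-CKO peaks of at least 500 bp were counted. A single Znhit1-CKO peak lay over 364 domains, 2 over 215, 3 over 41 and 4 over 2. Thus 258 domains (41.0%, 37.1 to 44.9%) held 2 or more, against 3.42% of all Control peaks. A wider interval offers more bases to overlap, so the next narrower Control peaks are the closer comparison. Among the 1493 Control peaks of 2000 to under 2500 bp, 2.009% (1.36 to 2.86%) had no Znhit1-CKO peak and 20.6% (18.6 to 22.8%) had 2 or more. Among the 5090 of 1500 to under 2000 bp, the shares were 5.32% and 11.7%. The share with several Znhit1-CKO pieces thus rose with Control width. The median widths were 1685 and 2173 bp in the 2 narrower classes and 2806 bp in the broad domains. The higher share in the broad domains therefore cannot be told apart from the selection on width. The intervals of the share with none overlapped between the broad domains and the 2000 to under 2500 bp peaks.

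**Figure D1:**
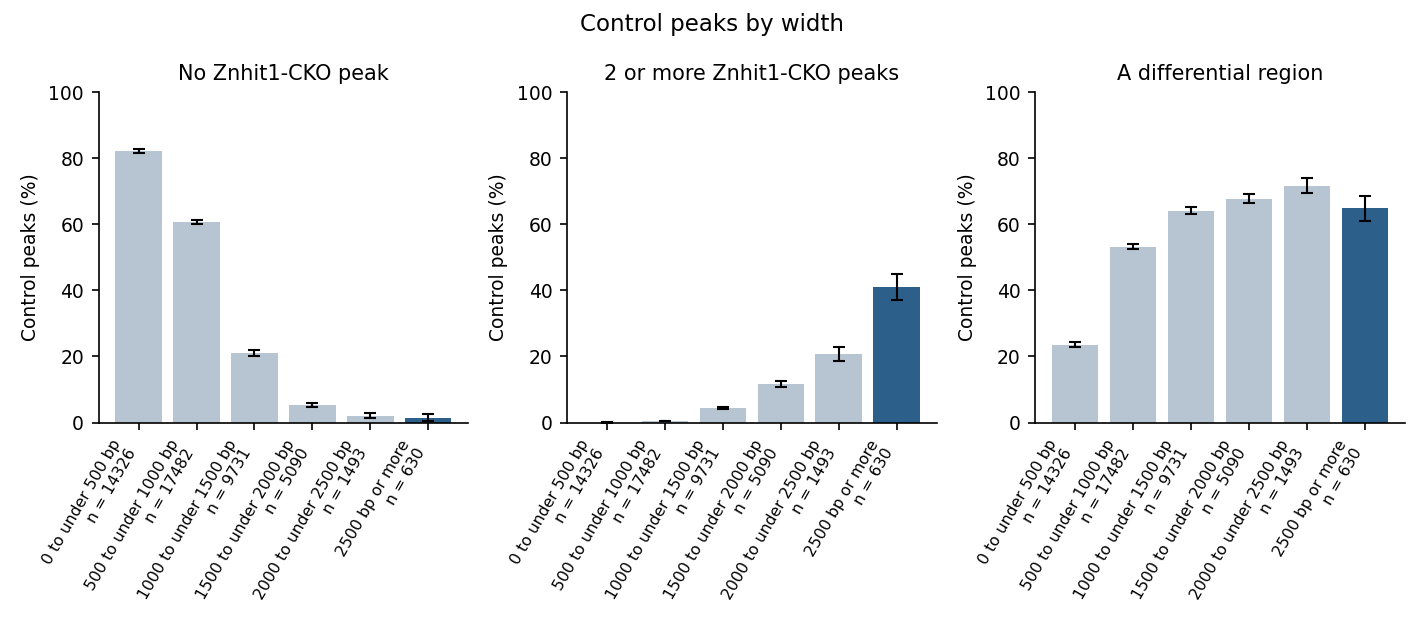
Share of Control peaks (%, with exact 95% binomial intervals) that had no Znhit1-CKO peak, 2 or more Znhit1-CKO peaks, or a differential region, by width of the Control peak in bp. The class of 2500 bp or more is in dark blue: 1.27% had no Znhit1-CKO peak, 41.0% had 2 or more and 64.9% had a differential region.

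Within the domains, Znhit1-CKO peaks covered a median of 79.5% of the length (95% interval of the median 77.2 to 81.5%, n = 630), with quartiles of 66.3 and 89.1%. In sum, 1394.01 of 1861.93 kb was covered, 74.9%. The median was 79.5% (78.4 to 80.3%) for Control peaks of 2000 to under 2500 bp and 80.9% (80.2 to 81.4%) for those of 1500 to under 2000 bp, and the 3 intervals overlap. Coverage was 100% in 17 domains and at least 90% in 138, was between 50 and 90% in 418, and was under 50% in 74, or 11.7% of the domains against 58.1% of all Control peaks, 12.5% of those of 2000 to under 2500 bp and 14.3% of those of 1500 to under 2000 bp. In 21 domains it was under 25%, the 8 without a Znhit1-CKO peak included. The longest Znhit1-CKO piece in a domain had a median of 1925.5 bp (1838 to 2036 bp). It reached 1000 bp in 553 domains and 2500 bp in 144 (22.9%, 19.6 to 26.3%).

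**Figure D2:**
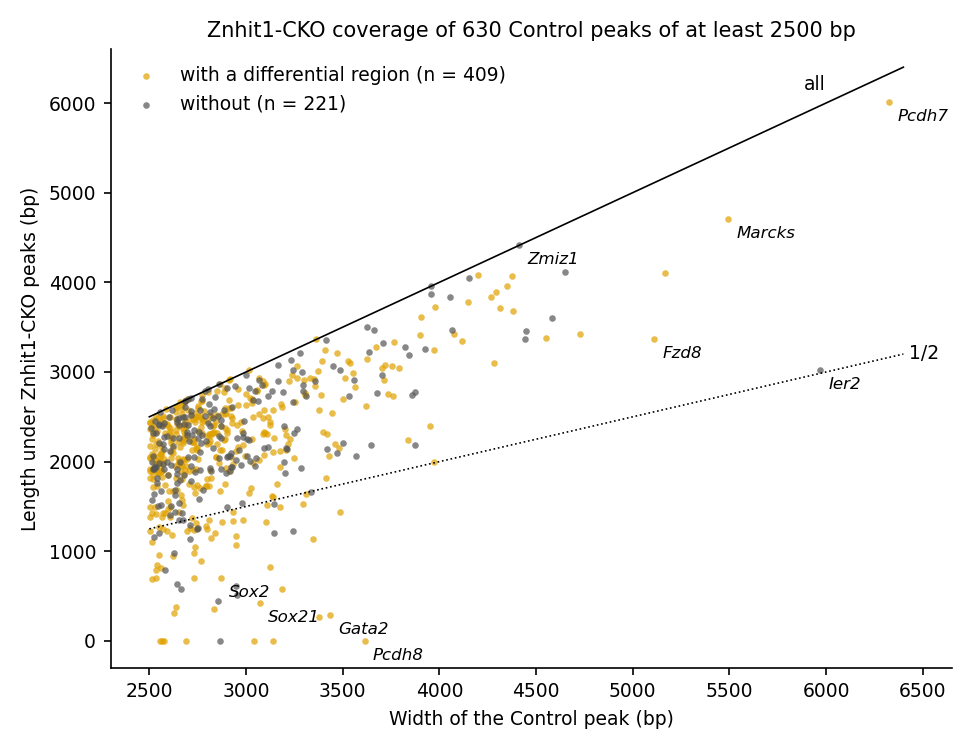
Length under Znhit1-CKO peaks (bp) against the width of the Control peak (bp) for the 630 domains, 1 point each. Orange points had a differential region (n = 409) and grey points had none (n = 221); the solid line marks complete coverage and the dotted line 1/2 of the width. Most points lie between the lines, Ier2 lies on the dotted line, and Pcdh8 lies at 0.

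Domains with a single Znhit1-CKO peak were covered to a median of 85.3% (82.8 to 87.6%, n = 364), and those with 2 or more to 73.9% (72.1 to 75.6%, n = 258). The domains with 2 or more had a median width of 2890 bp, against 2759 bp for those with 1. Most of what was not covered lay at the outer edges. In the domains with a Znhit1-CKO peak, 444.878 kb was uncovered, of which 74.6% lay between an edge of the domain and the nearest Znhit1-CKO peak, and 25.4% in the 303 gaps between Znhit1-CKO peaks. The gaps had a median of 264 bp (243 to 291 bp) and ranged from 151 to 2043 bp. Neighbouring peaks anywhere in the Znhit1-CKO list were at least 151 bp apart, so shorter gaps cannot appear, and 77 of the 303 gaps were under 200 bp. In 219 domains (34.8%, 31.04 to 38.6%) a Znhit1-CKO peak also ran past an edge of the domain, against 22.3% of all Control peaks and 30.1% (27.8 to 32.5%) of those of 2000 to under 2500 bp. When each domain was cut into 20 equal steps, a Znhit1-CKO peak lay over the outermost steps in 34.0 and 35.7% of the domains. Over the 13th step, just past the middle, one lay in 86.2%. Control peaks of 2000 to under 2500 bp had a similar profile, with 27.1 and 29.6% at the outermost steps and 88.1% at the 11th.

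The Znhit1-CKO list had its own broad peaks. Of its peaks, 181 were 2500 bp or wider, the widest being the 5724 bp piece at Pcdh7, and 159 of them lay over one of the 630 domains. The other 22 lay over narrower Control peaks, and for 5 of the 22 these were 2 or more separate Control peaks.

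The authors' differential regions touched most domains, each time over a short stretch. A differential region lay in 409 domains (64.9%, 61.1 to 68.6%), against 48.9% of all Control peaks. The share was 71.7% (69.3 to 73.9%) for Control peaks of 2000 to under 2500 bp and 67.7% (66.4 to 69.0%) for those of 1500 to under 2000 bp, so the broadest domains were not the most often differential. Of the 24367 differential regions, 24362 are 400 bp wide, and a domain held 1 region or none except for 2 domains with 2 each. The regions therefore covered a median of 12.9% of a domain (12.3 to 13.2%), counting the domains without one as 0. All 411 regions over domains lay wholly inside the domain, and 346 (84.2%, 80.3 to 87.6%) were centred in its middle 50%. A region that lies wholly inside cannot be centred at the very edge, and this share is not given here for narrower peaks. Of the 411, 342 (83.2%, 79.2 to 86.7%) lay wholly under a Znhit1-CKO peak, 50 partly and 19 (4.62%, 2.81 to 7.13%) outside any. For Control peaks of 2000 to under 2500 bp, 84.6% (82.3 to 86.7%) of 1071 regions lay wholly under a Znhit1-CKO peak. The list states no direction, so whether H2A.Z was higher or lower at a region in Znhit1-CKO testes cannot be read from it.

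The covered share was then set beside the differential regions, without a test. The median covered was 79.6% (77.4 to 81.6%, n = 409) with a differential region and 78.7% (76.0 to 82.9%, n = 221) without. By coverage, 75.7% of the 74 domains under 50% covered had a differential region (64.3 to 84.9%), against 64.6% of the 418 covered to between 50 and 90% (59.8 to 69.2%) and 60.1% of the 138 covered to 90% or more (51.5 to 68.4%). The share was highest in the least covered domains, and the 3 intervals overlap. A differential region lay in 15 of the 21 domains under 25% covered and in 9 of the 17 wholly covered.

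The widest domain lay at Pcdh7 (chr5:57714132-57720457, 6326 bp), a protocadherin gene of cell adhesion. A Znhit1-CKO peak of 5724 bp and 285 bp of another, which ran past the end of the domain, covered 95.0% of it. The start of Pcdh7 lay 3950 bp from its first base. Its differential region lay 1550 to 1950 bp from the first base, wholly under the longer Znhit1-CKO peak. The domain at Ier2 (chr8:84659737-84665705, 5969 bp), an immediate early gene, was of almost the same width and differed from it in both respects. It held 4 Znhit1-CKO peaks of 398 to 953 bp, was covered to 50.6%, and had no differential region. Its first 2149 bp were bare.

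Marcks, which encodes a membrane-bound substrate of protein kinase C that binds actin, had a domain of 5493 bp (chr10:37135952-37141444) that was covered to 85.7% by peaks of 1349 and 3356 bp. Its differential region ran from 1692 to 2092 bp, largely in the gap between them. The domain at Anp32a (chr9:62340370-62345537, 5168 bp), the gene of an acidic nuclear phosphoprotein, was covered to 79.5%, and that at Fzd8 (5112 bp), a frizzled receptor for WNT ligands, to 65.8% by a single peak of 3366 bp. At Fzd8 the differential region lay wholly under that peak. Each of the 5 widest domains thus kept Znhit1-CKO peaks over more than 50% of its length, and all but Ier2 had a differential region.

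Several of the next widest domains lay at genes of chromatin and transcription regulators. Smarca2, the gene of a SWI/SNF ATPase, had 4726 bp of which 72.4% was covered. Mllt3, whose product reads acylated histones in the super elongation complex, had 4652 bp with 88.6% covered. Bcl6, a transcriptional repressor, had 4443 bp in 3 pieces with 75.9% covered, and Ppargc1a, a coactivator of mitochondrial genes, had 4450 bp in 3 pieces with 77.6% covered. Ssbp3, the gene of a partner of LDB1, had 4379 bp in 3 pieces with 84.1% covered, and Etv1, an ETS factor gene, had 4376 bp with 93.0% covered by 1 peak. Klf4, a pluripotency factor gene, had 4312 bp in 2 pieces with 86.1% covered, and its differential region, 2477 to 2877 bp from the first base, spanned the gap between them and the Klf4 start at 2487 bp.

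The signalling and receptor genes in this group were Fat4, an atypical cadherin (4584 bp, 78.7% covered), Fzd7, another frizzled receptor (4551 bp, 74.2% covered), and Nr3c2, the mineralocorticoid receptor (4265 bp, 90.1% covered). Cdk6, a G1 cyclin-dependent kinase gene, had 4292 bp with 90.8% covered, and Hivep2, a zinc finger factor gene, had 4201 bp with 97.2% covered. The domain at Gpr108 also held a start of Trip10 on the opposite strand and was 4348 bp wide with 91.2% covered. Of the 20 widest domains, none was without a Znhit1-CKO peak.

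**Figure D3:**
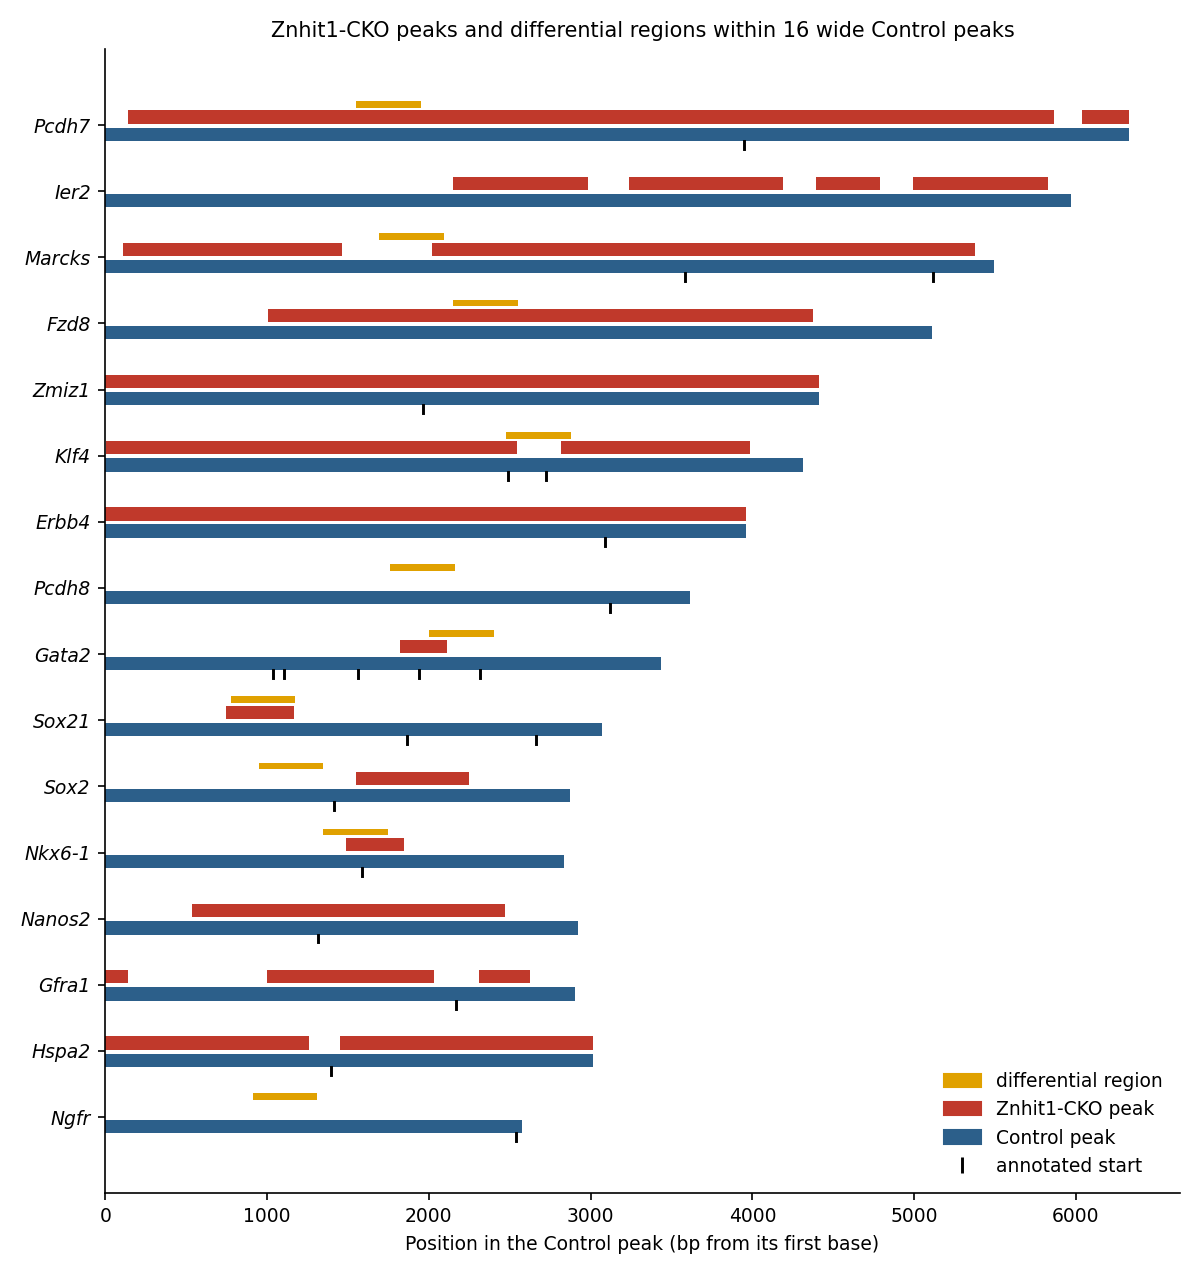
Positions of differential regions (orange), Znhit1-CKO peaks (red) and annotated starts of any gene (ticks) within 16 Control domains (blue), in bp from the first base of each domain in genome order. Pcdh7, Zmiz1 and Erbb4 are covered by long Znhit1-CKO peaks, Ier2 and Gfra1 are broken into pieces, Gata2, Sox21 and Nkx6-1 keep 1 short piece each, and Pcdh8 and Ngfr have none. The Nanos2 bar is the domain shared with Mypop.

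The 8 domains without a Znhit1-CKO peak were 2553 to 3613 bp wide, and 7 of them had a differential region. The widest lay at the start of Pcdh8 (chr14:79768191-79771803, 3613 bp), a protocadherin gene. The nearest Znhit1-CKO peak was 29871 bp away. The next had no protein-coding gene within 1 kb, lay by the pseudogene B020017C02Rik (chr3:54632328-54635465, 3138 bp) and held 2 differential regions. Domains inside Adam33, a membrane metalloprotease gene (chr2:131053637-131056677, 3041 bp), and Filip1, a filamin A interactor gene (chr9:79817809-79820675, 2867 bp), followed. The Filip1 domain was the one of the 8 without a differential region.

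The remaining 4 lay inside Gnas, the imprinted gene of the stimulatory G protein alpha subunit (chr2:174298413-174301103, 2691 bp), at the start of Ngfr, the p75 neurotrophin receptor (chr11:95585160-95587737, 2578 bp), near 4930407I10Rik (chr15:82063819-82066381, 2563 bp), and at Slc18a3, the vesicular acetylcholine transporter gene (chr14:32463002-32465554, 2553 bp). At Gnas a Znhit1-CKO peak lay 2249 bp away and another Control peak 858 bp away. At Slc18a3 neither list had another peak closer than 17196 bp. The 8 were therefore not all isolated from other H2A.Z peaks.

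A further 13 domains, chosen after their values were seen, were covered to over 0 and under 25%. The least covered lay away from protein-coding genes at the long noncoding RNA gene Mirc35hg (chr6:30172913-30176287), where 268 of 3375 bp (7.94%) remained. Another 4 also lay away from protein-coding genes and were covered to 11.8 to 23.8%. Of the other 8, 4 lay at transcription factor genes. The share of such genes among all broad domains is not given here, so this count does not set the least covered domains apart. Wholly covered domains also lay at such genes, Klf12 and Cux1 among them. Of the 4 here, Gata2, of blood and endothelial development, kept a single Znhit1-CKO piece of 289 bp in 3433 bp (8.42%). Nkx6-1, of pancreatic beta cells and motor neurons, kept 357 of 2834 bp (12.6%), Sox21, of neural progenitors, 418 of 3071 bp (13.6%), and Sox2, of pluripotent and neural cells, 703 of 2870 bp (24.5%). At Gata2 and Nkx6-1 the differential region overlapped the remaining piece in part, whereas at Sox2 it lay 947 to 1347 bp from the first base and the piece at 1548 to 2251 bp. The remaining 4 lay at genes of other kinds. These were Pcbp4, of a poly(C)-binding protein (14.2%), the pair of Cdk5, a neuronal kinase, and Slc4a2, an anion exchanger (17.2%), Copz2, of the COPI vesicle coat (18.2%) and Actg1, which encodes cytoplasmic gamma actin (20.8%), with no differential region at the Cdk5 and Slc4a2 domain or at Actg1.

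At the other extreme, 17 domains were covered from end to end by a single Znhit1-CKO peak. The 10 widest of these lay at Zmiz1, a transcriptional coactivator gene (chr14:25457225-25461638, 4414 bp), Erbb4, a neuregulin receptor gene (chr1:69104972-69108929, 3958 bp), L3mbtl3, a methyl-lysine reader gene (3364 bp), Tle1, a Groucho corepressor gene (3018 bp), Pde8a, a cAMP phosphodiesterase gene (2919 bp), Klf12, a zinc finger factor gene (2914 bp), Ptprd, a receptor tyrosine phosphatase gene (2866 bp), Magi2, a synaptic scaffold gene (2862 bp), Cux1, a homeodomain factor gene (2806 bp) and Spred3, a gene of a Sprouty-related inhibitor of ERK signalling (2786 bp). Of these 10, Zmiz1, Erbb4, Magi2, Cux1 and Spred3 had no differential region and the others had 1 each. A differential region therefore also appears where the Znhit1-CKO peak is as wide as the Control peak.

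Most domains sat on gene starts. A protein-coding gene end, meaning either limit of the annotated gene, lay inside 481 domains (76.3%, 72.8 to 79.6%), against 23.8% of all Control peaks and 72.7% (70.4 to 74.99%) of those of 2000 to under 2500 bp. Another 33 had one within 1 kb, making 514 (81.6%, 78.3 to 84.5%), against 31.1% of all Control peaks. The other domains were inside a gene (63) or away from protein-coding genes (53). The domains touched 603 of 21887 protein-coding genes (2.76%), and 4.07% of the 14815 that had any Control peak at an end. Where the strand of the gene was known, 434 of 477 genes had the domain at the 5′ end only, 20 at both ends and 23 at the 3′ end only. This split is not given here for other Control peaks, so it does not set the broad domains apart. Genes with a domain were longer, with a median of 35.7 kb against 22.3 kb for other genes with a Control peak at an end. Gene length is not given here for the next narrower width classes, so it does not set the broad domains apart either.

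Coverage was lowest away from protein-coding genes. The median was 80.3% (78.3 to 82.0%) with a gene end inside, 81.6% (71.3 to 87.4%) with one within 1 kb, 79.9% (74.2 to 82.1%) inside a gene and 71.5% (59.2 to 74.8%) away from protein-coding genes. The last interval lies below that of the domains with a gene end inside. A differential region lay in 65.9% of the domains with a gene end inside, 72.7% of those with one within 1 kb, 61.9% of those inside a gene and 54.7% of those away from protein-coding genes, with overlapping intervals. Of the 53 away from protein-coding genes, 31 lay within 1 kb of the end of another annotated gene. The widest, by the long noncoding RNA genes 1700031P21Rik and Gm35239 (chr12:52602086-52605983, 3898 bp), was covered to 87.6%. The second had 3 transfer RNA genes inside it or within 1 kb (chr14:51062694-51066354, 3661 bp) and was covered to 94.6%, and the third lay by the long noncoding RNA gene Gm30984 (chr17:87529299-87532920, 3622 bp) and was covered to 72.3%.

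An annotated start lay inside 446 domains (70.8%, 67.1 to 74.3%), against 24.7% of all Control peaks and 70.1% (67.7 to 72.4%) of those of 2000 to under 2500 bp. Of these domains, 162 held 2 or more starts, up to 5, and 109 held starts on both strands. Both counts lack a comparison with narrower Control peaks here. In the 368 domains that could be placed by a protein-coding start, the domain reached a median of 1286.5 bp upstream and 1614.5 bp downstream. The downstream arm was the longer in 220 (59.8%). That share was 58.6% for placed Control peaks of 2000 to under 2500 bp and 58.6% for those of 1500 to under 2000 bp. In the 368 domains, Znhit1-CKO peaks covered 76.7% of the upstream length and 76.5% of the downstream length, so neither arm was the more covered. In the 2000 to under 2500 bp class the shares were 73.8 and 78.1%.

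Along this axis, a Znhit1-CKO peak lay over the start itself in 88.3% of the 368 domains, over the position 200 bp downstream in 93.2% and over that 100 bp upstream in 81.8%. A Control peak lay over these positions in 100, 100 and 98.6% of the domains. A differential region lay over the start in 24.5% of the domains, against 35.5% of the 894 placed Control peaks of 2000 to under 2500 bp and 41.0% of the 2956 of 1500 to under 2000 bp. Of these 3 width classes, the broad domains had the lowest share with a differential region at the start. Nearly all regions are 400 bp wide, so they take up less of a wider peak. The median share of length under one was 12.9% in the broad domains, against 17.7 and 22.1% in the other 2 classes. The order at the start therefore cannot be told apart from peak width.

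**Figure D4:**
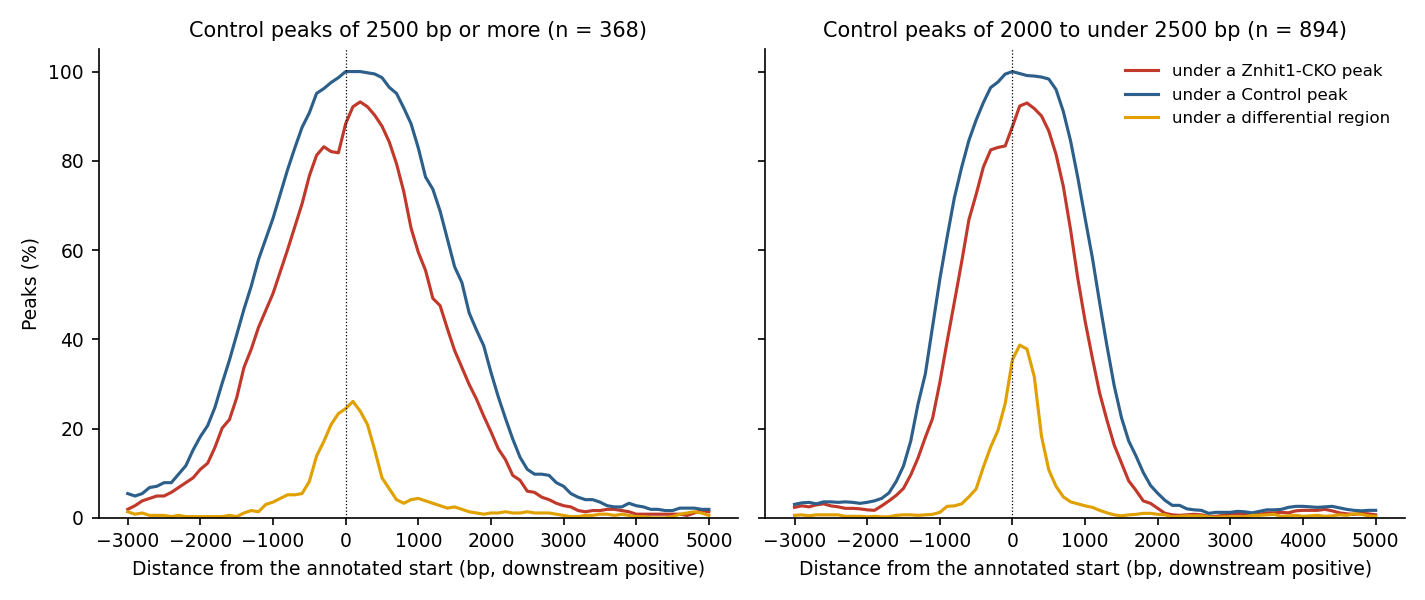
Percentage of Control peaks at which a Znhit1-CKO peak (red), a Control peak (blue) or a differential region (orange) lies at each distance from the annotated start in bp, for 368 Control peaks of 2500 bp or more and 894 of 2000 to under 2500 bp. The Znhit1-CKO curve reaches 93.2% at 200 bp downstream in the broad domains, and differential regions lie over the start in 24.5% of the broad domains and 35.5% of the narrower peaks.

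Promoters inside domains were CpG-rich, but not more so than those in somewhat narrower peaks. The 563 protein-coding starts in domains had a median CpG observed over expected ratio of 0.78 (0.76 to 0.81) in their 300-base promoter windows. It was 0.81 (0.80 to 0.82) in Control peaks of 2000 to under 2500 bp, 0.82 in those of 1500 to under 2000 bp, 0.18 at starts with no Control peak and 0.57 at all 21263 protein-coding starts. By coverage, the median ratio was 0.68 (0.62 to 0.79, 42 starts) in domains under 50% covered, 0.78 (0.75 to 0.81, 389 starts) in those covered to between 50 and 90%, and 0.81 (0.78 to 0.84, 132 starts) in those covered to 90% or more. The median GC content was 65.7% in each of these groups. The GC box letters GGGCGG, searched on both strands, were found in 74.6% of the windows in domains, against 72.9% in the 2000 to under 2500 bp class and 46.2% of all protein-coding windows. The TATA box letters TATAAA, also on both strands, were found in 6.57%, against 5.96 and 12.6%. A match to these letters is a description of the window, not a bound site.

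Gene groups differed widely in how many members had a broad domain. The lists below were chosen with earlier results of these data known, and their shares are set beside the 2.76% of all protein-coding genes. Most members of each list had a Control peak at an end, and among all such genes the share was 4.07%. That is the closer value. Over list members with such a peak, the shares ran from 0 to 25.7%. They were 5.61% for dispersed homeobox genes and 6.15% for the basic helix-loop-helix, GATA, ZIC and GLI list. At least 1 listed gene lay at 87 of the 630 domains, and neither the shares nor the medians were tested. The median covered over all 630 domains, 79.5%, is the value to read the medians against. List counts of domains with a differential region are to be read against 64.9% of all 630. With so few domains per list, they set no list apart.

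Transcription factors of development were one such group. Of 44 forkhead factor genes, 9 had a domain (20.5%), with a median of 71.1% covered and 36.2 to 94.0% among them. Foxo3, Foxp1 and Foxo1 had the widest, 3874, 3709 and 3670 bp, covered to 56.5, 89.5 and 89.4%. Foxc1 (80.3%) and Foxq1 (94.0%) followed in width, and 7 of the 9 had a differential region. Of 120 dispersed homeobox genes, 6 had a domain (5%), with a median of 53.6% covered. Among these were Pou3f2 (3970 bp, 50.3%), Pbx3 (3350 bp, 87.1%), Meis1 (3167 bp, 91.6%), Nkx6-1 and Irx5 (50.5%), and 5 of the 6 had a differential region. None of 39 genes of the Hox clusters had a domain, although 35 had a Control peak at an end. With 2.76% of all protein-coding genes in the set, a count of 0 in a list of this size does not set it apart.

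Of 44 Sox, Pax and T-box genes, 6 had a domain (13.6%), at Sox21, Sox11, Sox12, Sox2, Sox4 and Tbx2, with a median of 61.4% covered and 5 with a differential region. Of 74 basic helix-loop-helix, GATA, ZIC and GLI genes and their like, 4 had a domain (5.41%), at Gata6, of endoderm and heart (66.8% covered), Hey2, a Notch target (69.5%), Id4, an inhibitor of E proteins (83.1%) and Sall3 (43.9%). The Gata2 domain is not counted here because it lay inside the gene and not at an end. The median covered was below 79.5% in these 4 lists, as it was in every other list with 4 or more domains. Some of those were close to it, with 79.3% for the signalling pathway list and 77.3% for immediate early and stress genes. Both lie within the 77.2 to 81.5% interval of the median of all 630 domains. Lists with 1 or 2 domains had 69.1 to 100%, most of them above 79.5%, and some genes are in more than 1 list.

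Signalling and adhesion genes were represented as well. Of 130 ligands, receptors and inhibitors of the WNT, FGF, BMP, Hedgehog and Notch pathways, 16 had a domain (12.3%), with a median of 79.3% covered. They include 6 frizzled receptor genes, Fzd8, Fzd7, Fzd5, Fzd2, Fzd1 and Fzd4, at 63.1 to 88.6%. Jag1, a Notch ligand (4149 bp), was covered to 91.1%, Tgfb1 (3705 bp) to 79.9% and Wnt5a (3167 bp) to 97.3%. A differential region lay at 7 of the 16.

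Of 306 ion channel, synapse and axon guidance genes, 21 had a domain (6.86%), with a median of 71.3% covered and a range of 0 to 100%. The widest were at Sema6a, a semaphorin (4055 bp, 94.5%), Epha7, an ephrin receptor (3956 bp, 97.8%), the ephrins Efna5 (3836 bp, 58.3%) and Efna1 (3481 bp, 61.7%), and Kcng3, a potassium channel subunit (3029 bp, 89.1%). Among the others, 6 were under 50% covered, Slc18a3 included. Of 69 protocadherin genes, 5 had a domain, with a median of 69.5% covered, at Pcdh7, Pcdh8, Pcdh1 (37.8%), Pcdhgc3 (69.5%) and Pcdh10 (85.7%). This list alone therefore holds both the widest domain of the set and the widest without a Znhit1-CKO peak.

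Immediate early and stress genes had the highest share of any list, 9 of 36 (25%), with a median domain width of 3535 bp. Ier2, Klf4, Atf3 (3761 bp, 72.6% covered), Myc (3637 bp, 88.7%) and Dusp4, a MAP kinase phosphatase gene (3535 bp, 77.3%), had the widest. Fosb, Ccnd2, Junb and Egr1 were the others, at 58.6 to 95.0%. Of the 9, 7 held 2 or more Znhit1-CKO peaks, and 4 had a differential region. The median covered was 77.3%.

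The testis lists ranged from no domain to 5. Of 47 spermatogonial genes, 5 had a domain (10.6%), with a median of 68.5% covered. Foxo1, a forkhead factor, was covered to 89.4%, Ccnd2, cyclin D2, to 68.5%, and Id4 to 83.1%. The domain within 1 kb of Nanos2, an RNA-binding regulator of stem spermatogonia, had the start of Mypop inside and kept 1 Znhit1-CKO peak of 1937 bp in 2924 bp (66.2%). At Gfra1, a GDNF co-receptor gene (chr19:58453234-58456137, 2904 bp), 3 pieces of 141, 1033 and 318 bp remained (51.4%), and the Gfra1 start, 2165 bp from the first base, lay in the gap between the 1033 and 318 bp pieces. Foxo1 and Ccnd2 had a differential region, and Nanos2, Gfra1 and Id4 had none.

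A list of 48 meiotic genes, for axis proteins, synapsis and recombination, had no domain, although 46 had a Control peak at an end. Of 37 pachytene and spermatid genes, 1 had a domain (2.70%), Hspa2, a testis heat shock gene (3015 bp, 93.7% covered, no differential region). Among 31 genes of Sertoli, Leydig and peritubular cells, Inhbb, an inhibin beta subunit (2810 bp, 78.6%), and Gdnf, a Sertoli cell ligand of GFRA1 (2641 bp, 92.7%), had one (6.45%). With 2.76% of all protein-coding genes in the set, counts of 0, 1 and 2 in lists of this size set none of these lists apart from the others. With peak lists alone, the cell that carries a domain cannot be identified.

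The remaining lists were of housekeeping and chromatin genes. Of 83 cytoplasmic ribosomal protein genes, Rpl7 alone shared a domain, with Rdh10 (2701 bp, 100% covered). Of 33 G2/M genes Wee1 (2606 bp, 91.1%) had one, and of 65 replication-dependent histone genes H4c14 (2681 bp, 69.1%). Of 58 Polycomb, Trithorax and DNA methylation genes, 4 had a domain (6.90%), with a median of 75.2% covered, at Kdm2b (3417 bp, 62.5%), Kmt2c (2958 bp, 94.9%), Kmt2a (2854 bp, 87.9%) and Tet3 (2535 bp, 55.8%). The 27 genes that encode H2A.Z and the subunits of complexes that exchange it had none. Beside the 2.76% of all protein-coding genes, counts of 0 and 1 set none of these lists apart. The widest Control peaks at Znhit1, H2az1 and H2az2 were 2003, 2277 and 1518 bp, covered to 71.0, 68.6 and 89.3%. A peak at Znhit1 does not show whether the gene was deleted.

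**Figure D5:**
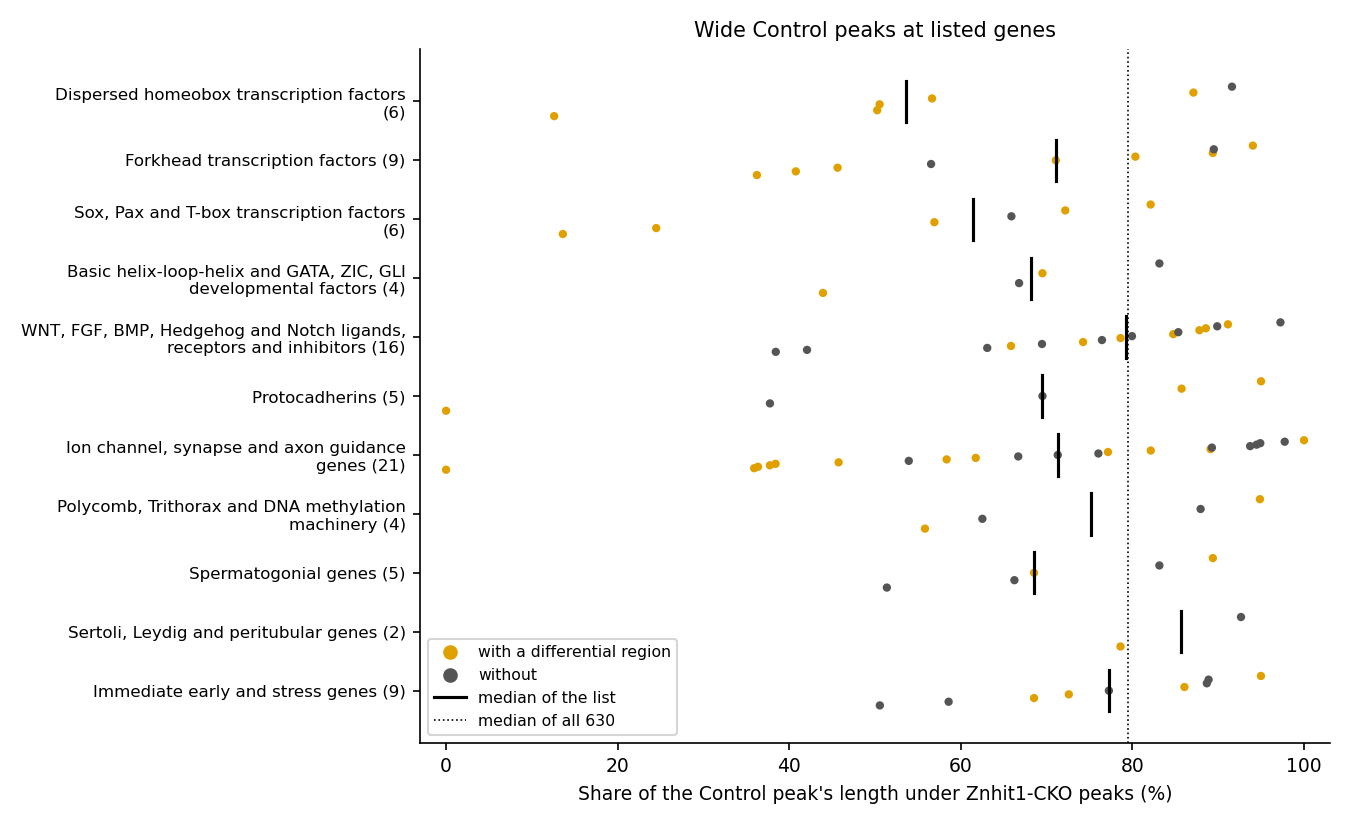
Share of each domain's length under Znhit1-CKO peaks (%) for the gene lists with 2 or more members in the set, 1 point per domain and gene, with the number of domains in brackets. Orange points had a differential region and grey points had none; thick bars are list medians and the dotted line is the 79.5% median of all 630 domains. Forkhead, homeobox and Sox, Pax and T-box domains spread from 12.6 to 94.0%.

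Broad domains were spread over all 19 autosomes, where they made up 0.958 to 1.84% of the Control peaks of a chromosome. The X chromosome held 782 of all Control peaks (1.6%) and 1 of the 630 domains (0.159%, 0.00402 to 0.881%). It also held 8 of the 1493 Control peaks of 2000 to under 2500 bp (0.536%, 0.232 to 1.05%), and these 2 intervals overlap. The X domain lay at Rps6ka3, the gene of the ribosomal S6 kinase RSK2 (2768 bp), was covered to 32.3% by 3 pieces of 227, 377 and 290 bp, and had a differential region between the 377 and 290 bp pieces. In 5 places a domain lay within 20000 bp of the next one. Another Control peak lay within 1000 bp of 107 domains (16.98%, 14.1 to 20.1%), against 16.8% of all Control peaks.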

How the data were processed

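The authors deposited 3 lists of regions, 1 of H2A.Z peaks per genotype and 1 of differential regions between Znhit1-CKO and Control, and each line holds nothing but chromosome, start and end. Per the submitters' processing notes, build mm10 was used with BWA 0.7.17 and MACS2 2.2.4, besides cutadapt 2.5, Picard 2.20.7 and SAMtools 1.9. The sources used here give neither the peak threshold and any pooling of replicates nor the threshold and direction of the differential regions. Depth is unknown, since the lists hold no read counts.

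Overlap needed at least 1 bp. Coordinates are printed counting from 1. Gene ends, starts and promoters came from RefSeq tables of GRCm38.p6, and a promoter with a strand was matched for 17492 of 21887 protein-coding genes. A gene end counted where it lay within 1000 bp. Genes were named as the 20 widest domains, those without a Znhit1-CKO peak, the 10 widest that were wholly covered, up to 5 per list, those beside the width limit, the 3 widest away from genes, and Znhit1, H2az1 and H2az2. Others were named after their values were seen. A few domains that this rule takes in are not reported here by gene. The members and the 18 gene lists were chosen with earlier results of these data known, and 1 listed symbol was not found in the table. Shares carry exact Clopper-Pearson 95% intervals and medians order-statistic intervals. No test was made, because there is 1 list per genotype. Coverage was checked on simulated intervals and against bedtools 2.31.1. The scripts ran in Python 3.11.15 with pandas 2.3.3, numpy 2.4.6, matplotlib 3.10.9 and scipy 1.17.1.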

Additional observations from a re-analysis of the deposited data

How the results depend on the processing

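Of 34 alternative values, 25 stayed within the counting interval of the reported value and 9 moved. With the width limit at 2000 bp, 69.7% of the domains had a differential region and the median length under one was 16.1%; at 3000 bp that median was 10.6% and the median number of Znhit1-CKO peaks was 2. With Znhit1-CKO peaks of at least 500 bp only, 3.17% of the domains had none. The median covered was 84.0% with Znhit1-CKO peaks joined across gaps of up to 500 bp and 94.6% over the middle 50% of each domain. A differential region over at least 50% of the length was found in 0 domains, which follows from the regions' 400 bp width. A gene end was within 1 kb of 89.7% with all annotated genes. The direction of several other moves was also fixed by the setting. A 400 bp region takes up less of a wider domain. Dropping short Znhit1-CKO peaks can only raise the share with none, and joining peaks can only raise the length covered. Counting more genes can only raise the share at a gene end. The causes of the remaining moves were not tested. No paired analysis was possible because each genotype has 1 list with no value per replicate, and for the same reason no replicate could be left out. A stricter peak threshold was not run, since no peak strength is given.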

Other observations

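Of the 1005 microRNA hairpins in the RefSeq table, 9 lay in a broad domain. The domain of 2519 bp at Mir760, on chromosome 3 and away from protein-coding genes, was covered to 74.0% by Znhit1-CKO peaks. The domain of 3627 bp at Mllt10 held Mir7655 and was covered to 86.8%, and both had a differential region. Mir8112 lay in the domain at Krcc1 (2751 bp, 82.2% covered) and Mir5103 in that at Ccdc115 (3136 bp, 88.9% covered), neither with a differential region. The hairpins are listed for their position only, and no microRNA level was measured.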
